A study of Mus musculus with 32 samples.

Results

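The genes described here encode the oxidative phosphorylation machinery of the mitochondrion, the enzymes that oxidize NADH and succinate with oxygen and use the energy to make ATP. They were taken by gene symbol from the count tables: the Nduf, Sdh, Uqcr, Cox4 to Cox8 and Atp5 names, 90 of the 23284 genes counted. By textbook role, 40 belong to complex I, 4 to complex II, 8 to complex III, 20 to complex IV and 15 to complex V. The other 3, Cox4nb, Atp5s and Atp5sl, carry a matching name, and RefSeq now calls them Emc8, Dmac2l and Dmac2. Complex I was split further into 7 core subunits, 29 accessory subunits and 4 assembly factors. Ndufa4 and its paralog Ndufa4l2 were placed with complex IV, where the Ndufa4 protein is now known to sit. Subunits encoded by mitochondrial DNA were not counted among these genes.

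RNA was sequenced from mouse arteries and from cultured smooth muscle cells (SMC) with and without Oct4, the pluripotency factor encoded by Pou5f1. The artery libraries came from brachiocephalic artery lesions of C57BL/6 mice fed a Western diet for 18 weeks, 4 Oct4-/- (KO) animals and 4 wild type (WT) animals, and their source is labelled as a mixture of cell types. The labels name no Cre driver and no age for them. The cultures were aortic SMC, Oct4-/- or wild type, in 8 groups of 3 libraries. KO and WT cells were each given POVPC, an oxidized phospholipid of oxidized low-density lipoprotein, or its vehicle, in hypoxia of 1% O2 or in normoxia. All groups of a genotype came from the same primary line, so that genotype and line cannot be told apart, and replicates are repeat cultures whose spread may be technical. The artery libraries held 6526099 to 11137414 counted fragments and the culture libraries 8063121 to 30231799 counted reads. Pou5f1 had a count in 1 of 8 artery libraries (at most 3) and in 3 of 24 culture libraries (at most 2), too few to check the genotype labels. Contractile SMC transcripts were low in culture, with Acta2 at 15.6 to 280 CPM (counts scaled to the size of the library) and Myh11 at 0.0398 to 5.58 CPM, against 1240 to 2707 CPM and 1485 to 3280 CPM in arteries, tables that were normalized separately. In such bulk RNA, fewer cells of a type and less RNA per cell cannot be told apart.

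Complex I passes electrons from NADH, and complex II from succinate, to ubiquinone. Complex III passes them on to cytochrome c, complex IV passes them to oxygen, and complex V, the ATP synthase, uses the proton gradient that complexes I, III and IV build. In low oxygen the transcription factor HIF-1 accumulates and is known to raise glycolytic genes, to raise Pdk1, which keeps pyruvate out of the mitochondrion, and to exchange oxygen-sensitive subunits of the chain. Smooth muscle cells of the artery wall are known to lean on glycolysis as well as respiration, and to lose contractile genes in culture.

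Transcripts of these genes made up about 1% of each library. Their sum was 9559 ± 929 CPM in KO POVPC hypoxia, against 10217 ± 554 in WT POVPC hypoxia (SD, n = 3 in each culture group). It was 9803 ± 439 CPM in KO vehicle hypoxia, against 9787 ± 1538 in WT vehicle hypoxia. In normoxia it was 9196 ± 696 CPM in KO POVPC cells, against 8372 ± 714 in WT POVPC cells, and 10255 ± 1635 CPM in KO vehicle cells, against 8080 ± 141 in WT vehicle cells. Levels of different genes were compared per kilobase of exon. Atp5b, the catalytic beta subunit of the ATP synthase, was highest, at a mean of 825 CPM per kb in culture and 926 in arteries. The median gene of complex IV stood at 158 CPM per kb in culture and that of complex I at 81.4. For complex II the medians were 58.8 CPM per kb in culture and 163 in arteries.

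**Figure D1:**
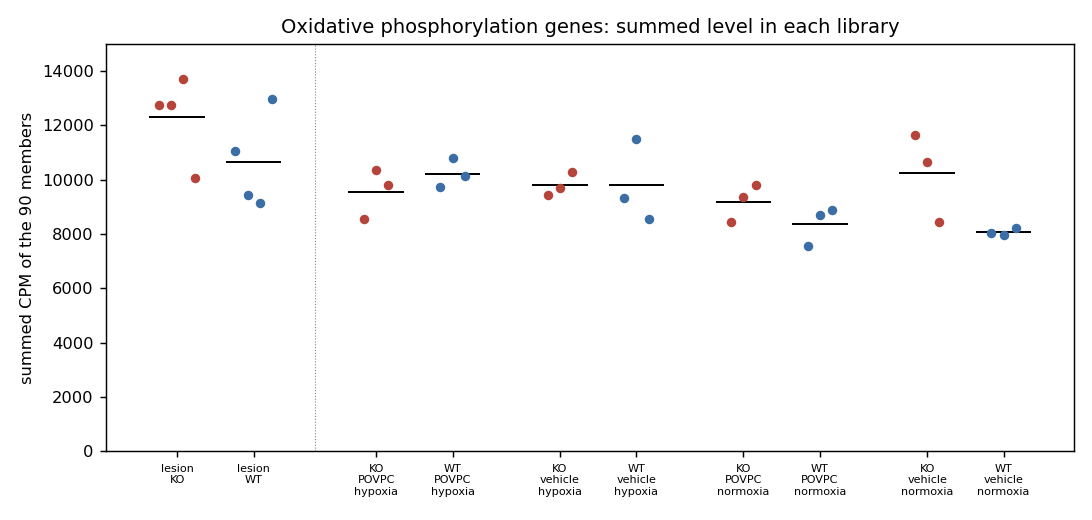
Summed CPM of the 90 genes (vertical axis) in each library, red for KO and blue for WT, with a line at each group's mean; arteries stand left of the dotted line and were normalized apart from the cultures. The 3 WT vehicle normoxia libraries lie together near 8080 CPM, and the KO vehicle normoxia libraries spread around 10255 CPM.

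Within a culture group the sum moved with a technical measure. Multimapping alignments per assigned alignment, from the deposited counting summaries, differed between libraries of a group, for example 3.88, 2.84 and 0.793 in the KO vehicle normoxia libraries. The library with the highest multimapping had the highest sum in 8 of 8 groups, and the 3 libraries stood in the same order on both measures in 7 of 8. Counts over all members are therefore also given below from a model that holds log2 multimapping as a covariate. This alternative was chosen after the data were seen. Multimapping also differed between groups. It was 0.743, 1.04 and 1.20 in WT POVPC normoxia, 5.79, 9.24 and 1.56 in WT POVPC hypoxia and 1.49, 1.30 and 1.96 in WT vehicle normoxia. The WT POVPC normoxia values lay below all values of both other groups named. In comparisons of WT POVPC normoxia with either group, covariate and condition cannot be told apart well, so those adjusted counts are uncertain. Some members also share sequence with pseudogene copies. Of the 90 genes, 13 had over 20% of their 50-base words in another annotated gene, led by Atp5l (68.5%), Uqcrb (43.2%), Atp5g2 (38.3%) and Ndufb4 (37%). Their counts are uncertain, because reads that map to several places may not be counted. Ndufs5 had almost no counts and shares 95.1% of its exon bases with an overlapping gene, and Ndufa13 shares 27.5% with a gene on the opposite strand in data counted without strand. The members are also short, at a median of 680.5 bases, against 2797.5 for the genes tested in culture. Among members the Spearman correlation of length with the log2 difference ran from -0.35 to 0.41 over the culture comparisons. The -0.35 was for POVPC in WT hypoxia and the 0.41 for the KO minus WT difference in POVPC response in normoxia. The part of length was not tested.

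**Figure D2:**
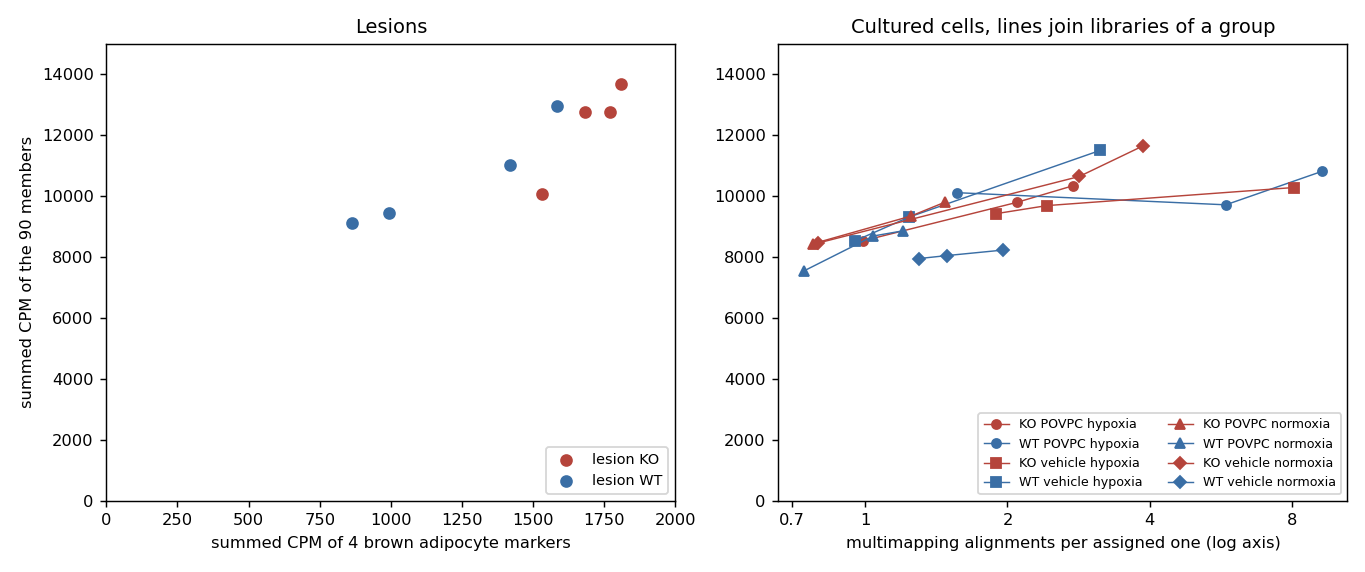
Summed CPM of the 90 genes against 2 measures taken in the same libraries: on the left, the summed CPM of 4 brown adipocyte markers in the artery libraries; on the right, multimapping alignments per assigned one (log axis) in the culture libraries, with lines joining the 3 libraries of a group. Red is KO and blue is WT; artery libraries with fewer brown adipocyte transcripts had lower sums, and within culture groups more multimapping went with higher sums.

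In the artery lesions no gene of the machinery passed the test. edgeR's quasi-likelihood test called 0 of 86 members at an adjusted p under 0.05, and 0% of the 14993 genes tested. At an unadjusted p under 0.05 there were 11 of the 86 members, against 14.8% of all genes, and DESeq2 called 0 members and 489 genes. The fitted log2 difference, KO against WT, was positive in 78 of 86 members with a median of 0.20, against -0.01 over all genes. The members' summed level was 12760, 12762, 13701 and 10059 CPM in KO arteries and 11042, 9438, 9128 and 12978 CPM in WT arteries, so that the groups overlapped. The closest to a call was Cox4nb, which encodes a subunit of an endoplasmic reticulum membrane complex. It had 69.5, 72.1, 72.1 and 68.2 CPM in KO arteries, against 76.7, 82.2, 90.2 and 82.6 CPM in WT arteries (log2 difference -0.24 ± 0.08 SE, edgeR adjusted p = 0.22). All KO values lay below all WT values. Cox4i2, the complex IV isoform known from lung and from the oxygen response, had 1.06, 2.19, 3.06 and 2.89 CPM in KO arteries, against 3.28, 3.47, 4.81 and 4.18 CPM in WT arteries (-0.74 ± 0.30, edgeR adjusted p = 0.29). The groups did not overlap in 3 of 86 members, a smaller share than the 8.8% of all genes tested. The third of these was Cox7a2l, which joins complexes III and IV into supercomplexes, with a log2 difference of 0.23 that missed the threshold.

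Transcripts of fat cells moved with the machinery in these arteries. Cox8b and Cox7a1, isoforms of heart, muscle and brown fat, were abundant there. Cox8b had 157, 165, 192 and 131 CPM in KO arteries, against 135, 101, 111 and 187 CPM in WT arteries. In culture it reached at most 0.286 CPM. The 4 brown adipocyte markers summed to 1681, 1770, 1808 and 1532 CPM in KO arteries and 1420, 993, 864 and 1584 CPM in WT arteries. The 5 general adipocyte markers ranged over 2232 to 3425 CPM in KO arteries and 1787 to 2552 CPM in WT arteries. The lowest KO library and the highest WT library were the same on the members' sum and on the brown adipocyte sum. With the log2 brown adipocyte sum as a covariate, chosen after the data were seen, the members' median difference was -0.09, 24 of 86 were positive and 0 were called. The 7 macrophage markers summed to 3389 to 8293 CPM in KO arteries and 1993 to 3044 CPM in WT arteries, and the 7 smooth muscle markers to 3833 to 5726 CPM in KO arteries and 5519 to 8383 CPM in WT arteries. The 3 endothelial markers summed to 719 to 858 CPM in KO arteries and 560 to 672 CPM in WT arteries. The macrophage and endothelial sums did not overlap between the groups. The 4 fibroblast markers summed to 1918, 2039, 2244 and 3540 CPM in KO arteries and 2094, 2694, 3888 and 1968 CPM in WT arteries. Their highest KO and lowest WT sums fell in the libraries with the lowest KO and highest WT members' sums. Striated muscle markers summed to 34.5 to 102 CPM in KO arteries and 61.6 to 200 CPM in WT arteries. The part of any cell type in the members' difference was not tested.

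In culture, KO cells had more summed transcript of the machinery than WT cells in vehicle and normoxia, and members of each of the 5 complexes were called higher. Of 84 members tested, 40 were higher and 1 was lower, with a median log2 difference of 0.28, against -0.02 over all genes. Over all genes tested, 29.8% were higher and 30.8% were lower. By complex, the numbers higher were 17 of 39 in complex I, 3 of 4 in complex II, 3 of 8 in complex III, 8 of 15 in complex IV and 7 of 15 in complex V. The complex III sum was 873, 807 and 599 CPM in KO libraries, against 695, 684 and 703 CPM in WT libraries. The complex V sum was 4229, 3735 and 3076 CPM, against 3003, 2941 and 3076 CPM. The groups overlapped in both sums. The 1 member called lower was Cox6b2, an isoform of complex IV known from testis. With the multimapping covariate 41 members were higher and 5 lower, and all 41 members called without it were among them, in the same direction. The 5 lower were Ndufs7, Uqcr10 and Uqcrq of complex III, Cox6b2 and Atp5h. With library size alone in place of TMM the split was 22 higher and 5 lower, and the median of all genes then stood at -0.16. Leaving out KO vehicle normoxia replicate 3, the library lowest in multimapping, gave 48 calls, and leaving out KO vehicle normoxia replicate 1, the highest in multimapping of its group, gave 29.

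In the other 3 conditions members were called in both directions. In vehicle and hypoxia 21 members were higher in KO cells and 16 lower (median -0.06), against 29.5% and 30.4% of all genes. Under library size alone this split was 14 and 17, and with the multimapping covariate it was 14 and 39. Of the 37 members called without the covariate, 30 were called with it, in the same direction. In POVPC and hypoxia 16 were higher and 14 lower (median -0.05), against 30% and 27.6% of all genes. There the split was 12 and 18 in DESeq2, 19 and 11 with library size alone, and 26 and 10 with the multimapping covariate. The covariate kept 24 of the 30 calls there. In POVPC and normoxia 25 were higher and 8 lower (median 0.08), against 29.5% and 30.7% of all genes. With the multimapping covariate 46 members were called there in place of 33, and all 33 kept their direction. Those added as lower were Ndufa1, Ndufa12, Ndufb11, Uqcr11, Uqcrc2, Atp5g1, Atp5h and Atp5k. Those added as higher were Uqcrb, Cox5b, Cox6c, Cox7c and Atp5sl. In the fit without the covariate, the members' shares called in these 3 comparisons lie near or under those of all genes in each direction. The 4 comparisons share no library. Of the members tested, 9 were higher in KO cells in all 4 conditions, 0 were lower in all 4, and 19 were called in none. Of all genes tested, 14% were higher in all 4, 13.8% were lower in all 4 and 12.7% were called in none, so that a smaller share of the members was called in all 4 and a larger share in none. The 9 were Ndufa11, Ndufb6, Ndufb8, Ndufs1 and Ndufaf4 of complex I, Sdhb, Cox5a, Atp5g3 and Cox4nb. With the multimapping covariate 9 of 9 were again called higher in all 4, and with library size alone 6 of 9, without Ndufs1, Atp5g3 and Cox4nb. The call of Atp5g3 in POVPC and hypoxia (0.19 ± 0.08) was lost without any 1 of WT POVPC hypoxia replicates 1 and 2 or KO POVPC hypoxia replicates 1, 2 and 3 (0.12 to 0.19, adjusted p 0.078 to 0.25).

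Ndufaf4, an assembly factor of complex I, was higher in KO cells in each condition. In vehicle and hypoxia it had 48.8, 51.5 and 53.2 CPM in KO cells, against 24.9, 27 and 23.9 CPM in WT cells. In vehicle and normoxia it had 37.2, 29.9 and 29.6 CPM in KO cells, against 14.4, 13 and 14.8 CPM in WT cells. KO and WT libraries stood apart in both gases. The log2 difference was 0.99 ± 0.10 (SE) in POVPC hypoxia, 1.06 ± 0.10 in POVPC normoxia, 1.02 ± 0.10 in vehicle hypoxia and 1.20 ± 0.10 in vehicle normoxia (largest edgeR adjusted p = 2.8e-09). Its partner in assembly, Ndufaf3, differed in 1 condition, POVPC and normoxia, where it was lower in KO cells (-0.44 ± 0.14, edgeR adjusted p = 0.0080). Ndufb6, an accessory subunit of the membrane arm, had 90.1, 90.9 and 60.3 CPM in KO cells, against 32.5, 30.4 and 33.9 CPM in WT cells, in vehicle and normoxia. Its log2 difference was 1.34 ± 0.22 in vehicle and hypoxia and 1.32 ± 0.22 in vehicle and normoxia. Ndufa11, another accessory subunit of the membrane arm, had log2 differences of 0.81 ± 0.16 in POVPC hypoxia, 1.00 ± 0.15 in POVPC normoxia, 0.78 ± 0.15 in vehicle hypoxia and 1.32 ± 0.15 in vehicle normoxia.

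Sdhb, the iron-sulfur subunit of complex II, was higher in KO cells in both gases. In vehicle and hypoxia it had 69.0, 69.1 and 72.3 CPM in KO cells, against 43.4, 57.1 and 41.6 CPM in WT cells (log2 difference 0.57 ± 0.11, edgeR adjusted p = 5e-05). In vehicle and normoxia it had 103, 86.2 and 73.3 CPM in KO cells, against 41.3, 39.8 and 45.5 CPM in WT cells (1.05 ± 0.11, edgeR adjusted p = 1.8e-09). In POVPC the differences were 0.32 ± 0.11 in hypoxia (edgeR adjusted p = 0.014) and 0.92 ± 0.11 in normoxia. The call in POVPC and hypoxia was lost without WT POVPC hypoxia replicate 1 (0.28, adjusted p = 0.062) or KO POVPC hypoxia replicate 2 (0.28, adjusted p = 0.059). The test of the difference between hypoxia and normoxia is given below. The anchor subunit Sdhc differed by 0.37 ± 0.09 in vehicle and normoxia.

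In complex III the members moved apart. Uqcrh, the hinge protein that helps bind cytochrome c, was higher in KO cells in POVPC normoxia (0.95 ± 0.17), vehicle hypoxia (0.59 ± 0.17) and vehicle normoxia (0.85 ± 0.16). In vehicle and normoxia it had 169, 154 and 104 CPM in KO cells, against 78.4, 78.1 and 81.0 CPM in WT cells. Uqcrq, a small subunit of the complex, was lower in KO cells in POVPC normoxia (-0.76 ± 0.20) and vehicle hypoxia (-1.0 ± 0.20, edgeR adjusted p = 0.00036), and also in POVPC hypoxia. In vehicle and hypoxia it had 52.8, 52.4 and 66.2 CPM in KO cells, against 98.0, 154 and 88.6 CPM in WT cells.

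Among complex IV genes, Cox5a, a subunit of the matrix face, was higher in KO cells by 0.46 ± 0.09 in POVPC hypoxia, 0.56 ± 0.09 in POVPC normoxia, 0.45 ± 0.09 in vehicle hypoxia and 0.65 ± 0.09 in vehicle normoxia. Cox6a1, the ubiquitous isoform of subunit 6a, was lower in KO cells in POVPC hypoxia (-0.51 ± 0.12), POVPC normoxia (-0.48 ± 0.12) and vehicle hypoxia (-0.62 ± 0.12). In vehicle and hypoxia it had 106, 102 and 115 CPM in KO cells, against 150, 201 and 146 CPM in WT cells. Cox6b2 was scarce. In POVPC and normoxia its log2 difference was -2.35 ± 0.36. In vehicle and normoxia it had 0.718, 0.745 and 0.916 CPM in KO cells, against 3.49, 3.56 and 3.79 CPM in WT cells (-2.17 ± 0.34, edgeR adjusted p = 2.4e-06).

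Ndufa4l2, a HIF target known to lower complex I activity, was near the detection limit in culture. In POVPC and hypoxia it had 2.37, 1.45 and 1.11 CPM in KO cells, against 0.303, 0.546 and 0.156 CPM in WT cells (2.55 ± 0.57, edgeR adjusted p = 0.00038). In POVPC and normoxia it had 0.509, 0.285 and 0.229 CPM in KO cells and was at 0 in the 3 WT libraries. Against a floor of 3 counts per library, its mean of 0.341 CPM in KO cells was at least 2.66-fold higher than the 0.128 CPM that the floor allows in WT cells. Placing the gene at its bound left the members' medians as they were. This had to be so, because the gene stays above the median at its bound, and it is no check of the medians. In arteries it had 4.26 to 8.45 CPM in KO and 4.09 to 7.88 CPM in WT animals.

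Hypoxia raised some members and lowered others, within complexes as well as between them. In KO cells 22 members rose and 20 fell with POVPC (median 0.00), against 34.5% and 33.9% of all genes, and 12 rose and 28 fell with vehicle (median -0.15), against 32.6% and 32.8% of all genes. In WT cells 32 rose and 13 fell with POVPC (median 0.25), against 31.8% and 34.3% of all genes. With vehicle 23 rose and 12 fell (median 0.16), against 32.8% and 35.3% of all genes. Scaling changed the WT splits: with library size alone they were 23 higher and 19 lower with POVPC, with the median of all genes at -0.11, and 15 higher and 24 lower with vehicle, with that median at -0.21. In KO cells the multimapping covariate gave 22 higher and 26 lower with POVPC and 13 higher and 43 lower with vehicle. In WT cells it gave 12 higher and 27 lower with POVPC, where the median turned to -0.07, and 36 higher and 19 lower with vehicle. In WT POVPC cells multimapping did not overlap between hypoxia and normoxia, so that adjusted split is uncertain. There the covariate kept 24 of the 45 calls. It kept 35 of 35 in WT vehicle cells, 40 of 40 in KO vehicle cells and 42 of 42 in KO POVPC cells.

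The 7 core subunits of complex I include the carriers of its redox centres. Of these, 4 fell and 0 rose in KO cells with POVPC and again with vehicle. In WT cells 4 fell and 1 rose with POVPC and again with vehicle. Over all genes, 31.8% to 34.5% rose and 32.8% to 35.3% fell in these comparisons. The core was singled out after its values were seen, and several of its WT calls rested on single libraries, as given below. The 28 accessory subunits of complex I tested gave 5 higher and 9 lower in KO POVPC cells and 3 and 12 in KO vehicle cells. In WT cells they gave 10 and 3 with POVPC and 8 and 2 with vehicle. With the multimapping covariate, falls outnumbered rises among them in WT POVPC cells. Ndufa1, Ndufa8, Ndufab1 and Ndufv3 were then called higher. Ndufa2, Ndufa3, Ndufa6, Ndufa7, Ndufa9, Ndufa10, Ndufa13, Ndufb3, Ndufb4, Ndufb9, Ndufb11 and Ndufc1 were called lower. In complex II 2 of 4 fell in KO cells with POVPC and 3 of 4 with vehicle, while 2 of 4 fell in WT cells in each treatment. In complex III 0 of 8 fell in any of the 4 comparisons, and 3, 1, 4 and 3 rose in KO POVPC, KO vehicle, WT POVPC and WT vehicle cells. This depended on the fit. With the multimapping covariate Uqcr11 and Uqcrh fell in KO vehicle cells, where Uqcrb and Uqcrfs1 rose. Uqcrc1 and Uqcrc2 fell in WT POVPC cells. In WT vehicle cells Uqcrc2 fell, while Uqcr10, Uqcr11, Uqcrb, Uqcrfs1 and Uqcrq rose. In complex V 4 rose and 1 fell in KO cells with POVPC and 4 rose and 4 fell with vehicle, while in WT cells 0 of 15 fell, and 7 rose with POVPC and 4 with vehicle. With the multimapping covariate Atp5c1, Atp5e and Atp5h fell in WT POVPC cells, while Atp5b, Atp5f1, Atp5g1 and Atp5g3 rose there.

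The 4 hypoxia comparisons share no library, and 10 members rose in all 4 while 11 fell in all 4 and 19 were called in none, of 84 members tested. Of all genes tested, 18.7% rose in all 4, 19.8% fell in all 4 and 9.52% were called in none. Those that rose were Ndufa8, Ndufab1, Ndufb10 and Ndufaf4 of complex I, Uqcrfs1, Cox5a, and Atp5b, Atp5f1, Atp5g1 and Atp5g3 of the ATP synthase. Among those that fell were the core subunits Ndufs1, Ndufs3 and Ndufv1, the accessory subunits Ndufa6 and Ndufa13 and the assembly factor Ndufaf3 of complex I, Sdha and Sdhc of complex II, Cox6b2, and Atp5s. With library size alone 8 of the 10 and 11 of the 11 were again called in all 4. With the multimapping covariate 8 of the 10, without Ndufb10 and Uqcrfs1, and 11 of the 11 were, and with RLE size factors 10 of the 10 and 9 of the 11, without Ndufs3 and Ndufv1.

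Cox5a, Ndufaf4 and Atp5g3 were higher both in KO cells and in hypoxia, in every one of the 8 comparisons. Cox5a had 150, 150 and 162 CPM in KO vehicle hypoxia, against 104, 95.5 and 82.7 CPM in KO vehicle normoxia (log2 difference 0.71 ± 0.09, edgeR adjusted p = 1.3e-07). It had 105, 132 and 101 CPM in WT vehicle hypoxia, against 61.8, 61.8 and 55.9 CPM in WT vehicle normoxia (0.91 ± 0.09, edgeR adjusted p = 1.2e-09). Ndufaf4 differed by 0.67 ± 0.10 in KO vehicle cells and 0.84 ± 0.10 in WT vehicle cells. Hypoxia and normoxia libraries did not overlap in Cox5a or in Ndufaf4.

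Of the ATP synthase, Atp5b had 1766, 1824 and 1845 CPM in KO vehicle hypoxia, against 1542, 1339 and 1139 CPM in KO vehicle normoxia (0.44 ± 0.09, edgeR adjusted p = 7.6e-05). In WT vehicle cells it had 2019, 2222 and 1822 CPM in hypoxia, against 1109, 1070 and 1138 CPM in normoxia (0.87 ± 0.09, edgeR adjusted p = 6.4e-10). Atp5g1, 1 of the genes for the c subunit of the rotor ring, differed by 0.64 ± 0.12 in KO vehicle cells and 1.19 ± 0.12 in WT vehicle cells. Uqcrfs1, the Rieske iron-sulfur protein of complex III, differed by 0.45 ± 0.08 in KO vehicle cells and 0.57 ± 0.08 in WT vehicle cells. Its call in WT POVPC cells (0.27 ± 0.08) was lost without WT POVPC hypoxia replicate 3 (0.20, adjusted p = 0.051). Ndufa8, an accessory subunit of complex I, differed by 0.35 ± 0.08 in KO vehicle cells and 1.02 ± 0.08 in WT vehicle cells.

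The falls of the complex I core were of modest size. Ndufv1, which binds NADH, had 126, 125 and 121 CPM in KO vehicle hypoxia, against 195, 161 and 144 CPM in KO vehicle normoxia (-0.42 ± 0.09, edgeR adjusted p = 0.00014). It had 102, 112 and 91.3 CPM in WT vehicle hypoxia, against 136, 124 and 138 CPM in WT vehicle normoxia (-0.38 ± 0.09, edgeR adjusted p = 0.00034). The hypoxia values lay below all normoxia values in both lines. Ndufs1, which carries several iron-sulfur clusters, differed by -0.40 ± 0.08 in KO vehicle cells and -0.21 ± 0.08 in WT vehicle cells. Ndufv2, another iron-sulfur subunit, was the 1 core subunit that rose in WT cells (0.49 ± 0.15 in POVPC and 0.43 ± 0.15 in vehicle). Its POVPC call was lost with the multimapping covariate (0.14), and its vehicle call without WT vehicle hypoxia replicate 2 (0.27, adjusted p = 0.11).

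Several WT calls among these falls rested on single libraries. In vehicle, Ndufs1 was not called without normoxia replicate 3 (-0.19, adjusted p = 0.061) or hypoxia replicate 3 (-0.16, adjusted p = 0.11). Ndufs3, a core subunit of the quinone module, was called at -0.23 ± 0.10 with all libraries and was lost without any 1 of 5 libraries, normoxia replicates 1, 2 and 3 and hypoxia replicates 1 and 3 (adjusted p 0.067 to 0.24). In POVPC, Ndufv1 was not called without normoxia replicate 3 (-0.18), hypoxia replicate 2 (-0.17) or hypoxia replicate 3 (-0.21), with adjusted p of 0.069 to 0.15.

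In complex II, Sdhc had 117, 125 and 125 CPM in KO vehicle hypoxia, against 238, 209 and 174 CPM in KO vehicle normoxia (-0.76 ± 0.09, edgeR adjusted p = 2.1e-08). It had 107, 115 and 94.4 CPM in WT vehicle hypoxia, against 163, 155 and 163 CPM in WT vehicle normoxia (-0.60 ± 0.09, edgeR adjusted p = 9.3e-07). Sdha, the flavoprotein that oxidizes succinate, fell by 0.40 on the log2 scale in KO vehicle cells and by 0.48 in WT POVPC cells. In WT vehicle cells it was called at -0.19 ± 0.08, and was not called without normoxia replicate 1 (-0.15), normoxia replicate 3 (-0.19) or hypoxia replicate 2 (-0.12), with adjusted p of 0.054 to 0.19. Sdhb had no common direction across the 4 comparisons.

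Atp5s fell in all 4 comparisons. Its product, now named Dmac2l, was once described as coupling factor B of the ATP synthase. Atp5s had 0.928, 1.00 and 1.43 CPM in KO vehicle hypoxia, against 8.20, 7.63 and 7.81 CPM in KO vehicle normoxia (-2.89 ± 0.21, edgeR adjusted p = 1.2e-12). It had 1.58, 2.31 and 1.79 CPM in WT vehicle hypoxia, against 9.86, 8.49 and 7.91 CPM in WT vehicle normoxia (-2.23 ± 0.18, edgeR adjusted p = 8.3e-12). The groups were far apart in both lines. In POVPC the log2 differences were -2.64 ± 0.20 in KO cells and -2.83 ± 0.23 in WT cells. The assembly factor Ndufaf3 fell by 0.91 on the log2 scale in KO vehicle cells and by 1.07 in WT vehicle cells. Cox6b2 fell by 2.39 on the log2 scale in KO vehicle cells and by 4.16 in WT vehicle cells, where it had 0.140, 0.220 and 0.237 CPM in hypoxia, against 3.49, 3.56 and 3.79 CPM in normoxia.

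**Figure D3:**
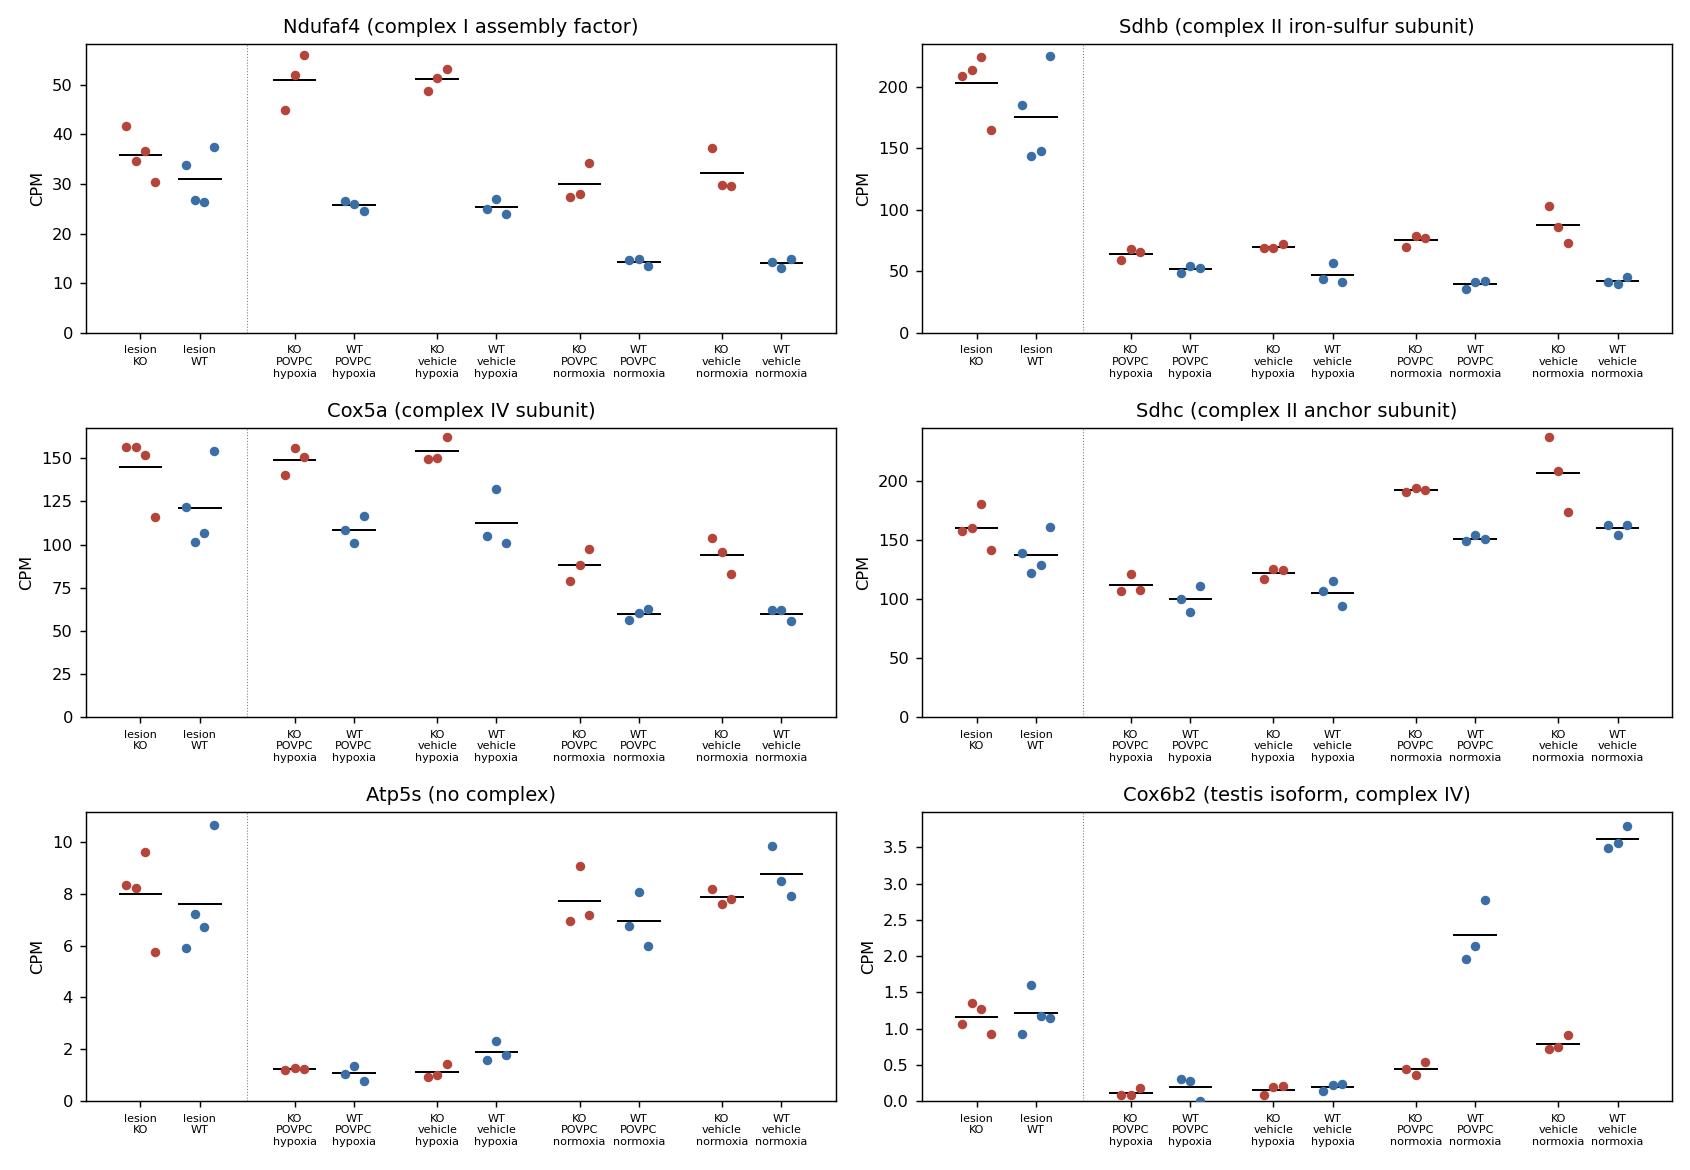
CPM of 6 members (a panel each, axes starting at 0) in every library, arteries left of the dotted line and the 8 culture groups right of it; red is KO, blue is WT and the line is the group mean. Ndufaf4 and Cox5a are high in KO and in hypoxia, Sdhb is high in KO cells, Sdhc and Atp5s are low in hypoxia, and Cox6b2 is highest in WT normoxia.

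The promoters of 4 of these genes are shown for the genes that were higher in KO cells throughout (Ndufaf4, Sdhb, Cox5a) and for a gene that fell in hypoxia in both lines (Atp5s). Each runs from 250 bases before to 50 bases after the RefSeq start on GRCm38.p6, all on the plus strand: Ndufaf4 at chr4:24897833-24898132, Sdhb at chr4:140961021-140961320, Cox5a at chr9:57520982-57521281 and Atp5s at chr12:69724695-69724994. Capitals mark, on either strand, the HIF core letters ACGTG and GCGTG, the NRF1 letters GCATGCGC and the GABP letters CCGGAAGT, where NRF1 and GABP are factors known to drive respiratory genes. Overlapping matches are each counted.
Ndufaf4: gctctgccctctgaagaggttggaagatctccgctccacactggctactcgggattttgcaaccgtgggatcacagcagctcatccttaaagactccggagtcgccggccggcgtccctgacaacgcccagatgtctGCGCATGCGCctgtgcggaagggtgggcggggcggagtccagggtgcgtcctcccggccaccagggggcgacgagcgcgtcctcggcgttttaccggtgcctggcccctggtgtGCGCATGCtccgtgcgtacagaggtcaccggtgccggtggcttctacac
Sdhb: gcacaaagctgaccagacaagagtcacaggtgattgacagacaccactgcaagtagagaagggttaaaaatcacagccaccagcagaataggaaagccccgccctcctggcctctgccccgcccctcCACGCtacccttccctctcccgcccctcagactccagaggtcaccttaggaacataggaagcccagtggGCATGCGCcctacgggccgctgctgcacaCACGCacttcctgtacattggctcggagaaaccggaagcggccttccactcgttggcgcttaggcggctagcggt
Cox5a: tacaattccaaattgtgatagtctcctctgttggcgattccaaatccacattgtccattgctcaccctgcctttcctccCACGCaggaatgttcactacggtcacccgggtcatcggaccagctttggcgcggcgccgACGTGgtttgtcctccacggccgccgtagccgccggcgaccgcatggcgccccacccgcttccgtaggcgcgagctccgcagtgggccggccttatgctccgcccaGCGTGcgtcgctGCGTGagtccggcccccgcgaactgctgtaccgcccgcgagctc
Atp5s: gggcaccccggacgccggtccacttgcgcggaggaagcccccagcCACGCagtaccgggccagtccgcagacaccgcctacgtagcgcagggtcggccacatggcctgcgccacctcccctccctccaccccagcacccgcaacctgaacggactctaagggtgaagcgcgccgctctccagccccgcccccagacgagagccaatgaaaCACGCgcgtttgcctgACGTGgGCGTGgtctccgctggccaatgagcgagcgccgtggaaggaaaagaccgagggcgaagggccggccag
The Ndufaf4 window holds 3 matches to the NRF1 letters and 0 to the HIF letters. The Sdhb window holds 1 NRF1 match and 2 of GCGTG, and the Cox5a and Atp5s windows each hold 1 of ACGTG and 3 of GCGTG. Of the 90 members, 74 had an entry, with 80 promoters among them. The NRF1 letters were in 11 of the 80 (13.8%), against 2.71% of all 32851 promoters of the same length. ACGTG or GCGTG was in 53 of the 80 (66.2%), against 43.8% of all promoters. The GABP letters were in 5 of the 80 (6.25%), against 3.89% of all promoters. All promoters were taken, not matched to the members in expression or base composition, so the shares are descriptive. A match describes the letters of the window and is not a binding site. Cox5a, which rose in hypoxia, and Atp5s, which fell, hold equal numbers of both HIF core motifs.

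POVPC changed few members in either line. By edgeR's test in KO cells 0 were called in hypoxia, where 4.06% of all genes were called in either direction, and 0 in normoxia, where 0.0414% were. For KO cells DESeq2 called 0 members in hypoxia and 0 in normoxia, and at an unadjusted p under 0.05 there were 5 of 84 members in hypoxia, against 17.9% of all genes, and 6 of 84 in normoxia, against 7.42% of all genes. In WT cells 0 rose and 4 fell in hypoxia, against 21% of all genes, and 3 rose and 2 fell in normoxia, against 26.9%. In WT cells in hypoxia Ndufaf1, another assembly factor of complex I, fell by 0.45 on the log2 scale. Sdha fell by 0.36 there, with 130, 129 and 130 CPM in POVPC against 177, 150 and 172 CPM in vehicle. In WT cells in normoxia Cox7a2l fell by 0.45, and the delta subunit of the ATP synthase, Atp5d, differed by 0.51. In KO cells the smallest p values in hypoxia included that of Ndufa5 (0.46), and in normoxia those of Uqcrc2 (-0.20) and Sdhd (-0.19), and they missed the threshold. In KO cells in normoxia 76 of 84 fitted differences were negative, with a median of -0.16, against 0.01 over all genes. Shorter members fell more there, with a Spearman correlation of length and log2 difference of 0.30. The members' median ranged over -0.28 to -0.05 with 1 library left out. It was -0.02 with the multimapping covariate, where 38 of 84 differences were positive.

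These small counts turned on single libraries. In WT cells in normoxia the 5 calls became 2 without vehicle replicate 1, and 3 without POVPC replicate 2 or POVPC replicate 3. Atp5d was lost without vehicle replicate 1 (0.39, adjusted p = 0.074) or POVPC replicate 3 (0.40, adjusted p = 0.079), and Cox7a2l without POVPC replicate 1 (-0.37, adjusted p = 0.063). In WT cells in hypoxia the 4 calls became 8 without vehicle replicate 2. In KO cells the 0 calls became 2 in normoxia without vehicle replicate 3 and 1 in hypoxia without POVPC replicate 1. With the multimapping covariate WT cells had 19 calls in normoxia and 7 in hypoxia.

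Whether the lines responded differently was tested as a difference of responses. In vehicle, the KO response to hypoxia minus the WT response was called positive in 2 members and negative in 10 (median -0.28), against 19.2% and 19.9% of all genes. In POVPC it was called positive in 0 and negative in 3, against 15.7% and 14.4% of all genes. The 10 negative members in vehicle were Ndufa7, Ndufa8, Ndufa13, Ndufb5, Sdhb, Cox6a1, Cox8a, Atp5b, Atp5d and Atp5g1. Ndufa8 differed most surely, with -0.66 ± 0.11 (edgeR adjusted p = 1.6e-05). The vehicle count depended on single libraries: it was 12 with all, 34 without KO vehicle normoxia replicate 3, 26 without WT vehicle hypoxia replicate 3, and 7 without WT vehicle hypoxia replicate 2. With the multimapping covariate it was 2 positive and 44 negative. Sdhb, with a negative difference in both treatments (-0.61 ± 0.15 in POVPC and -0.48 ± 0.15 in vehicle), lost the vehicle call without KO vehicle normoxia replicate 1 (-0.35) or WT vehicle hypoxia replicate 2 (-0.33). The response to POVPC differed in 3 members in normoxia, 1 positive and 2 negative, against 16.2% of all genes, and in 3 in hypoxia, all positive, against 9.37%. The count in normoxia was 9 without KO vehicle normoxia replicate 3, 5 without WT POVPC normoxia replicate 1, and 1 without any 1 of WT vehicle normoxia 3, WT POVPC normoxia 2 or 3, KO vehicle normoxia 2 or KO POVPC normoxia 1. The hypoxia difference in POVPC counted 5 without KO POVPC normoxia replicate 1 or WT POVPC hypoxia replicate 1 and 6 without WT POVPC hypoxia replicate 3.

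Other genes of respiration were read from lists kept apart from the symbol rule. Of 10 further subunits and electron carriers, 7 were higher and 0 lower in KO cells in vehicle and normoxia, against 29.8% and 30.8% of all genes. In hypoxia 2 of the 10 rose in each of the 4 comparisons, and 3 or 4 fell, against 31.8% to 34.5% of all genes rising and 32.8% to 35.3% falling. In WT vehicle cells Cycs, which encodes cytochrome c, was among those that rose (1.26) and Etfb, an electron transfer flavoprotein subunit, among those that fell (-1.13). All 11 HIF targets listed for sparing oxygen rose in all 4 hypoxia comparisons, with medians of 4.08 and 3.69 in KO POVPC and KO vehicle cells and 3.24 and 4.19 in WT POVPC and WT vehicle cells. Ldha, which turns pyruvate into lactate, rose by 3.74 on the log2 scale in KO vehicle cells and 4.47 in WT vehicle cells, and Pdk1 by 3.11 in KO vehicle cells and 2.47 in WT vehicle cells.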

How the data were processed

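The authors sequenced RNA on an Illumina HiSeq 2000, per the labels' protocols, with reads aligned by STAR to mm9 and assigned to genes with featureCounts, per the submitters' processing notes. The deposited values are raw counts per gene, per the file headers from featureCounts 1.4.4 without strand. Of the culture counts between 10 and 1000, 53.8% to 60.3% were even, against 50.0% to 50.9% of the artery counts, so mates appear to have been counted singly in culture.

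Arteries (4 against 4) and cultures (24 libraries in one 8-group model) were fitted apart in edgeR 4.0.16 (R 4.3.3) with filterByExpr (minimum count 10, minimum total 15), TMM, a robust quasi-likelihood fit, and Benjamini-Hochberg adjustment over all genes tested, 14993 and 14496. A call is an adjusted p under 0.05, and tests are two-sided. The filter kept 86 members in arteries and 84 in culture. CPM values use TMM-scaled library sizes, and a standard error is the log2 difference over the square root of F. On simulated counts with 200 changed genes the culture test (14107 genes, vehicle and normoxia) recovered 47% of changes of 0.5 on the log2 scale and 79% of changes of 1, and the artery test (14870 genes) 3% and 67%. Alternatives were RLE size factors, library size alone, DESeq2 1.42.0, no filter, a replicate block, halved culture counts, libraries left out, and covariates. Depth limits genes of a few counts, such as Ndufa4l2 and Cox6b2. Sequences were read from RefSeq tables, and coordinates of the counts' own build are not printed.

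Members and lists were chosen with earlier results of these data known. Named genes are, in each comparison and complex, the 2 largest called rises and falls among members averaging at least 1 CPM, the 5 smallest p values where none was called, tissue isoforms, and up to 3 genes of each list. The complex I core subunits, the members called in all 4 conditions and the genes in the promoter display were chosen after their values were seen. Results of 1 member are not reported here.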

Additional observations from a re-analysis of the deposited data

Results flagged for a closer look

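No library stood out from its group in the 24 tests of group values in arteries (4 libraries each), where a gap wide for the range marks a library and chance would mark about 1 in 20. All the values here were singled out because the KO response differed from the WT response by a test of the difference itself (KO response minus WT response, edgeR adjusted p under 0.05, log2 scale).

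In the response to hypoxia in vehicle the differences were -0.66 for Ndufa8, -0.61 for Ndufa13, -0.57 for Ndufa7 and -0.55 for Ndufb5 of complex I, -0.48 for Sdhb, -0.55 for Cox6a1 and -0.43 for Cox8a, and -0.43 for Atp5b, -0.53 for Atp5d and -0.55 for Atp5g1. They were 0.33 for Cox4nb and 3.50 for Ndufa4l2, a gene with few counts. Of the 12 libraries in this test, leaving out 1 ended the call for 9 choices in Atp5d, 8 each in Ndufa7 and Ndufa13, 7 in Cox8a, 2 each in Ndufb5 and Sdhb, and 1 in Cox4nb. WT vehicle hypoxia replicate 2 was among those choices for the 6 genes other than Cox4nb. Without it the values were -0.30 for Atp5d, -0.39 for Ndufa7, -0.36 for Ndufa13, -0.30 for Cox8a, -0.44 for Ndufb5 and -0.33 for Sdhb. Cox4nb was lost without KO vehicle hypoxia replicate 3 (0.27).

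In the response to hypoxia in POVPC the differences were -0.61 for Sdhb and -0.62 for Cox7a2l.

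In the response to POVPC in normoxia they were -0.36 for Sdhd, the membrane anchor of complex II, -0.35 for Uqcrfs1, and 5.92 for Ndufa4l2, fitted against a WT POVPC group at 0 and so dependent on the prior count. Leaving out 1 of 12 libraries ended the call for 8 choices in Sdhd and 10 in Uqcrfs1, most of all KO vehicle normoxia replicate 1 (-0.27 and -0.24). In the response to POVPC in hypoxia they were 0.63 for Ndufaf1, 0.46 for Sdha and 1.14 for Atp5s, whose call ended for 9 choices (0.88 without WT POVPC hypoxia replicate 3).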

How the results depend on the processing

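The counts of members called kept within 1.5 times under RLE size factors, no filter and halved counts. With library size alone 27 members differed between KO and WT in vehicle and normoxia, and the differences of response counted 1 (POVPC, normoxia) and 7 (hypoxia, vehicle). DESeq2 gave 5 (POVPC, normoxia) and 7 (hypoxia, POVPC) for differences of response. Without the 3 shallowest culture libraries 16 differed between KO and WT in POVPC and hypoxia, 28 responded to hypoxia in WT POVPC cells, and differences of response counted 1 (POVPC, hypoxia) and 19 (hypoxia, vehicle). With the multimapping covariate POVPC changed 2 (KO hypoxia), 7 (WT hypoxia) and 19 (WT normoxia), hypoxia changed 55 in WT vehicle cells, and differences of response counted 7 (POVPC, normoxia), 5 (POVPC, hypoxia), 46 (hypoxia, vehicle) and 5 (hypoxia, POVPC). The causes were not tested. Same-numbered replicates did not deviate together (mean correlation 0.013 in culture and -0.19 in arteries); the replicate block gave 44 calls for KO against WT in vehicle and normoxia, in place of 41, and 1 for POVPC in KO hypoxia.

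With 1 library left out in turn, calls for KO against WT ranged over 29 to 48 (vehicle, normoxia), 29 to 35 (vehicle, hypoxia), 26 to 29 (POVPC, normoxia), 21 to 31 (POVPC, hypoxia) and 0 to 0 in arteries (median 0.14 to 0.30). The median ranged over -0.15 to 0.12 for vehicle and hypoxia. Calls for hypoxia ranged over 33 to 39 (KO POVPC), 34 to 45 (KO vehicle), 34 to 41 (WT POVPC) and 29 to 36 (WT vehicle). Calls for POVPC ranged over 0 to 1 (KO hypoxia), 0 to 2 (KO normoxia), 3 to 8 (WT hypoxia) and 2 to 5 (WT normoxia). Differences of response ranged over 1 to 9 (POVPC, normoxia), 2 to 3 (POVPC, hypoxia), 7 to 34 (hypoxia, vehicle) and 3 to 6 (hypoxia, POVPC). Of 1442 values of single genes under other settings 1370 kept direction and call, 71 lost and 1 gained the call, and 0 reversed; of 1218 with 1 library left out 1097 kept it and 121 lost it.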

Other observations

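Genes around the respiratory chain were also called in hypoxia against normoxia. Of 76 genes for mitochondrial ribosomal proteins, which translate the subunits encoded by mitochondrial DNA, 42 rose and 11 fell in KO POVPC cells, 33 rose and 13 fell in KO vehicle cells, 36 rose and 11 fell in WT POVPC cells, and 43 rose and 7 fell in WT vehicle cells. Of 11 regulators of mitochondrial biogenesis, 8 rose in KO cells in each treatment, 7 in WT POVPC cells and 6 in WT vehicle cells, with 1 falling in each comparison. Of 13 genes of the tricarboxylic acid cycle, 3 rose and 7 fell in KO vehicle cells and 6 rose and 4 fell in WT vehicle cells. Lonp1, a HIF target that encodes a mitochondrial protease, rose by 0.63 on the log2 scale in KO vehicle cells and by 0.86 in WT vehicle cells. The lists are read by their counts alone, beside 31.8% to 34.5% of all genes rising and 32.8% to 35.3% falling over the 4 comparisons, and the difference between lines was not tested list by list.

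In arteries 0 genes of these lists were called. Their median log2 differences, KO against WT, were 0.13 for the mitochondrial ribosome and 0.21 for the tricarboxylic acid cycle, beside 0.20 for the 86 respiratory genes tested.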
